A study of Homo sapiens with 6 samples.

Results

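The ErbB receptors and their ligands were followed in LNCaP cells, an established androgen-responsive line from a human prostate cancer metastasis, when androgen was returned after withdrawal. The list held 10 genes, 4 receptors (EGFR, ERBB2, ERBB3 and ERBB4) and 6 ligands (EGF, AREG, EREG, TGFA, HBEGF and NRG1), and every probe set that the platform annotation gives to 1 of them alone was taken. This found 37 of the 54675 probe sets on the array, for 9 of the 10 genes. AREG, amphiregulin, was not analysed here. All cells spent 3 days in phenol red-free RPMI with 10% serum stripped by charcoal and dextran. For the next 48 h, 3 cultures (the DHT group) were kept with dihydrotestosterone (DHT), the main androgen of the prostate, at 100 nM, and 3 further cultures of the same line were the controls. The labels call the cultures of each group biological replicates. They do not name a vehicle for the controls and do not say that cultures came from separate passages or days. The p-values therefore measure only the spread among these 3 and 3 cultures, part of which may be technical.

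The ErbB receptors are transmembrane tyrosine kinases that signal as pairs. EGFR and ERBB4 bind ligand and have active kinases, ERBB2 has no known ligand of its own and is a favoured partner of the others, and ERBB3 binds neuregulins but has a weak kinase and recruits PI3-kinase through its tail. EGF, transforming growth factor alpha (TGFA) and amphiregulin bind EGFR, heparin-binding EGF-like growth factor (HBEGF) and epiregulin (EREG) bind both EGFR and ERBB4, and neuregulin 1 (NRG1) binds ERBB3 and ERBB4. The ligands are made as membrane-anchored precursors and are released by metalloproteases.

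With DHT, EGFR and HBEGF rose, each in its brightest probe set, and no probe set of the other members passed the test. EGFR rose 1.72-fold in signal at probe set 224999_at and 1.78-fold at 201983_s_at, and HBEGF rose 1.64-fold at 203821_at. The brightest ERBB2 probe set had a signal ratio of 0.983 and the brightest ERBB3 probe set one of 1.08, neither past the threshold. Of the 37 probe sets, 19 passed a filter that removed the dimmest 40% of the array (a signal of about 17.3) and were tested, with 3 higher, 0 lower and 16 not past an adjusted p of 0.05 in limma. Over all 32768 probe sets tested, 10.3% passed, 5.09% as higher and 5.25% as lower. At an unadjusted p under 0.05, 4 of the 19 were higher and 1 was lower. The share of all probe sets at this looser threshold was not computed, so these counts cannot be set against the 5.09% and 5.25%. The median log2 difference was -0.06 over the 19 and 0.01 over all probe sets tested. Probe sets of 1 gene share a transcript and are not independent. Of the 3 that rose, 2 belong to EGFR.

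The sequence before the transcription start is shown for the 2 genes that rose and for ERBB2, a receptor read at high signal that did not pass. These are the 250 bases before the start in RefSeq (GRCh38.p14), with EGFR at chr7:55018767-55019016 on the plus strand, HBEGF at chr5:140346604-140346853 on the minus strand and ERBB2 at chr17:39687844-39688093 on the plus strand. Capitals mark the GC box GGGCGG or its reverse complement CCGCCC.
EGFR: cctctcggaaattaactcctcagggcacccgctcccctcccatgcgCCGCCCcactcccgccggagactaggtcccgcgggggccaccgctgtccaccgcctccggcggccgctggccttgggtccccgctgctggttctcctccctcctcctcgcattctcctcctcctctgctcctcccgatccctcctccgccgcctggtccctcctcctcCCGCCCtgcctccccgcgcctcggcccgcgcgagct
HBEGF: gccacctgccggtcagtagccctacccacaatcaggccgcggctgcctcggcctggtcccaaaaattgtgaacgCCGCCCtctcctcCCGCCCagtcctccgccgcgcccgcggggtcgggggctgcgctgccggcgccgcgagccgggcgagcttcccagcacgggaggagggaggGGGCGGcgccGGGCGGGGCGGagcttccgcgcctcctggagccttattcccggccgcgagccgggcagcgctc
ERBB2: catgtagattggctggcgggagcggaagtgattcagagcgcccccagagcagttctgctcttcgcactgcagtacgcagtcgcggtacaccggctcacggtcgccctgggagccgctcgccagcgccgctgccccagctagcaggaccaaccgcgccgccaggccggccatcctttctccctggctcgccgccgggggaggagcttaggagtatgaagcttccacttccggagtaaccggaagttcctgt
The EGFR stretch held 2 GC boxes, the HBEGF stretch 5, the final pair overlapping, and the ERBB2 stretch 0. The genes that did not pass had from 0 to 3: TGFA had 3 at one start and 0 at another, ERBB4 1, and EGF 0. Among 35116 stretches of this length before RefSeq starts, 42.6% held at least 1. A single arm of the androgen response element, AGAACA (or TGTTCT), was in none of the 3 stretches and in 12.4% of all. Of the genes that did not pass, ERBB4 held 1 such arm, TGFA 1 at the start with 0 GC boxes, and EGF 0. The GC content was 73.6% for EGFR, 76.4% for HBEGF and 65.6% for ERBB2, against a median of 58.0%. RefSeq gives EGFR a second start, at which the stretch had a GC content of 38.8% and 0 GC boxes. The ERBB2 stretch lies before the only start looked at for that gene, so its counts may not describe the promoter in use. These matches describe letters only, and which start was in use is not measured by the array.

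EGFR, the receptor for EGF, was covered by 9 probe sets, of which 6 were tested. At 224999_at the control arrays read 194, 199 and 203 and the DHT arrays 317, 328 and 382. Every DHT array lay above every control array, and the gap between the groups was wider than the spread within either. The means were 199 ± 4.68 and 342 ± 34.7 (SD, n = 3 each), a log2 difference of 0.74 ± 0.10 (SE; limma adjusted p = 0.0007). Of all tested probe sets, 1.78% had a difference at least as large. At 201983_s_at the control arrays read 107, 101 and 107 and the DHT arrays 172, 184 and 205. This probe set separated the groups as clearly, with a log2 difference of 0.74 ± 0.11 (limma adjusted p = 0.0015). At 201984_s_at, annotated to the RefSeq mRNA, the controls read 104, 179 and 158 and the DHT arrays 202, 206 and 227. The groups again did not overlap, but control replicate 1 was low, and the difference of 0.51 ± 0.16 did not pass (limma adjusted p = 0.0645). It was 0.31 without control replicate 1 (limma adjusted p = 0.145), passed at 0.65 without control replicate 2 (limma adjusted p = 0.0301), and also passed with the dimmest 60% left out.

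**Figure D1:**
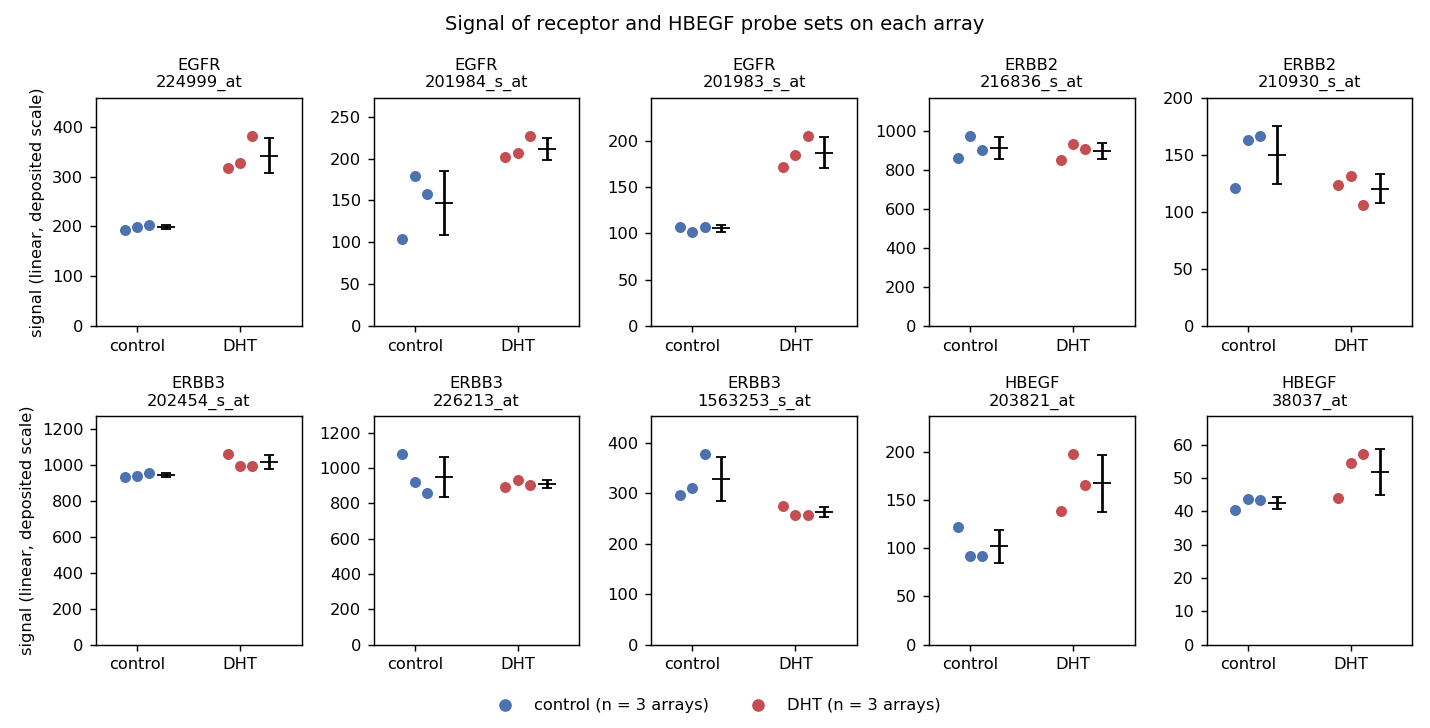
Signal on each array (linear axis from 0) for 10 receptor and HBEGF probe sets, with control arrays in blue, DHT arrays in red and the mean ± SD (n = 3) as a black mark beside each group. At 224999_at the DHT arrays lie between 317 and 382 and the controls between 194 and 203, while the ERBB2 probe set 216836_s_at overlaps between the groups.

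The other EGFR probe sets were dim. At 1565483_at the controls read 27.8, 36.1 and 43.6 and the DHT arrays 27.9, 27.3 and 29.2, and at 211551_at the controls read 28.3, 45.1 and 37.5 and the DHT arrays 27.2, 45.0 and 31.2. Neither pair of groups separated, and their log2 differences were -0.22 and -0.07. The probe set 1565484_x_at, whose suffix marks likely cross-hybridisation, scattered from 5.80 to 63.9 over the 6 arrays, with a difference of -0.68 ± 0.38 (limma adjusted p = 0.310). The 3 untested ones, 210984_x_at, 211550_at and 211607_x_at, never read above 7.57. The dim probe sets therefore did not show the rise seen at 224999_at and 201983_s_at. In a mean over all 6 tested EGFR probe sets the log2 difference was 0.17 ± 0.13 (limma adjusted p = 0.480), so the call rests on 224999_at and 201983_s_at.

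ERBB2, the partner receptor without a ligand of its own, stayed close to its control signal in its bright probe set. At 216836_s_at the controls read 859, 972 and 903 and the DHT arrays 850, 933 and 905. The groups overlapped throughout, and the log2 difference was -0.02 with a 95% confidence interval from -0.19 to 0.14 (limma adjusted p = 0.897). At the dimmer 210930_s_at the controls read 121, 163 and 167 and the DHT arrays 124, 131 and 106, a difference of -0.27 with an interval from -0.58 to 0.03. Control replicate 1 lay within the DHT range there, and the difference did not pass (limma adjusted p = 0.256). The third, 234354_x_at, read between 3.14 and 22.5 and was not tested.

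ERBB3, the neuregulin receptor that couples to PI3-kinase, had 4 tested probe sets of 5, and they did not move alike. At 202454_s_at, annotated to the RefSeq mRNA, the controls read 934, 940 and 958 and the DHT arrays 1060, 993 and 997, with no overlap but a log2 difference of only 0.10 (95% interval -0.04 to 0.25; limma adjusted p = 0.397; -0.42 with the scaling to spike RNAs described further on). At 226213_at the controls read 1077, 922 and 857 and the DHT arrays 891, 934 and 905, fully overlapping, with -0.06 (interval -0.25 to 0.14). At 1563253_s_at the order was the opposite, with the controls at 297, 311 and 377 and the DHT arrays at 275, 258 and 257. Its difference was -0.29 ± 0.10 with an interval from -0.52 to -0.07, which did not pass after adjustment (limma adjusted p = 0.0944). The dimmest tested one, 215638_at, had 0.19 (interval -0.38 to 0.76), and -0.34 with spike scaling. The untested 1563252_at read at most 18.6.

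How far probe sets of a gene, or EGFR and the other receptors, moved apart was described by the log2 difference between the members of a pair within each array. For 4 pairs chosen after the values were seen, a two-sided exact permutation of 3 against 3 arrays cannot give a p below 0.1. EGFR (224999_at) relative to ERBB2 (216836_s_at) was 0.76 higher with DHT, and relative to ERBB3 (226213_at) 0.79 higher. The ERBB3 probe set used there had -0.06, and the brightest one, 202454_s_at, which had 0.10, was not used for that pair. Within ERBB3, 202454_s_at relative to 1563253_s_at was 0.40 higher, and within HBEGF, 203821_at relative to 38037_at was 0.42 higher. Each of the 4 pairs gave the smallest p this design allows (exact permutation p = 0.1, and 0.1 after Benjamini-Hochberg adjustment over the 4), so in each the 3 DHT arrays lay on one side of the controls. Because the pairs were picked with their values known, and the adjustment does not cover that choice, these p-values cannot decide whether responses differed.

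ERBB4, which binds neuregulins and HBEGF, was dim in all 4 of its probe sets. At 214053_at, the only one tested, the controls read 29.0, 32.4 and 31.8 and the DHT arrays 24.3, 23.3 and 41.4, with a log2 difference of -0.06 ± 0.21. DHT replicate 3 was above all controls and the other two DHT arrays below. The remaining ERBB4 probe sets ranged from 1.06 to 48.8 over the arrays and overlapped between the groups. The 95% interval of the difference at 214053_at ran from -0.53 to 0.40.

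**Figure D2:**
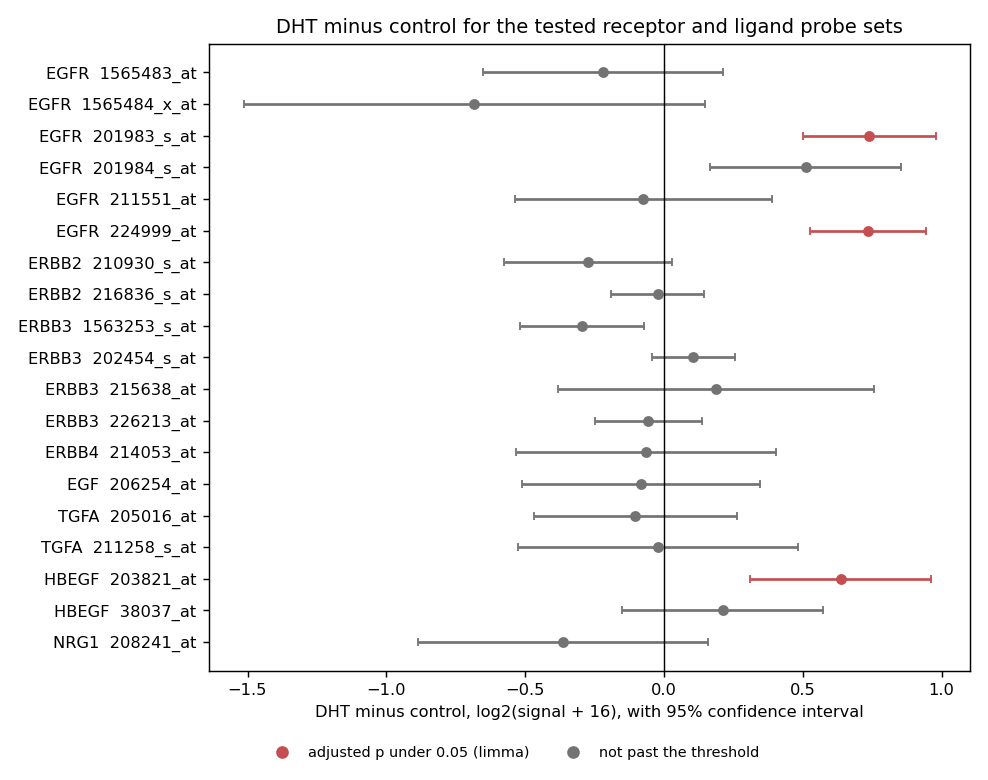
DHT minus control on the log2(signal + 16) scale with the 95% confidence interval from limma for each of the 19 tested probe sets, grouped by gene. The red points, past an adjusted p of 0.05, are EGFR 201983_s_at and 224999_at at 0.74 and HBEGF 203821_at at 0.64, and the interval of ERBB2 216836_s_at runs from -0.19 to 0.14.

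Among the ligands, HBEGF, the heparin-binding factor for EGFR and ERBB4, rose. At 203821_at, annotated to the RefSeq mRNA, the controls read 122, 91.7 and 91.5 and the DHT arrays 139, 197 and 166. No DHT array reached down to the controls, although control replicate 1 and DHT replicate 1 came within a short distance of each other. The means were 102 ± 17.4 and 167 ± 29.3 (SD, n = 3 each), a log2 difference of 0.64 ± 0.15 (SE; limma adjusted p = 0.0192). The call was lost without control replicate 2 or 3 or without DHT replicate 2 or 3 (limma adjusted p = 0.0565 to 0.0791) and without the intensity trend (limma adjusted p = 0.0823). A second probe set, 38037_at, read 40.4, 43.7 and 43.5 in the controls and 44.2, 54.6 and 57.1 with DHT. Its groups did not overlap either, but the difference of 0.21 ± 0.17 did not pass (limma adjusted p = 0.490) and was -0.32 with spike scaling. The mean of both gave 0.42 ± 0.12 (limma adjusted p = 0.0498). The other HBEGF probe sets, 222076_at and 244857_at, read between 1.47 and 13.3 and were not tested.

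TGFA, a ligand of EGFR, had 2 tested probe sets. At 205016_at the controls read 90.2, 85.1 and 123 and the DHT arrays 86.0, 76.1 and 112, with a log2 difference of -0.10 (95% interval -0.47 to 0.26), and at 211258_s_at the difference was -0.02 (interval -0.53 to 0.48). The groups overlapped at both, and at 205015_s_at no array read above 3.21. EGF itself, the founding ligand of the family, read 35.9, 35.4 and 26.5 in the controls and 33.3, 25.7 and 30.4 with DHT at its only probe set, 206254_at. These ranges overlapped, at -0.08 ± 0.20 (limma adjusted p = 0.850). The intervals of TGFA and EGF are wide enough to hold changes of the size seen in HBEGF's second probe set.

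EREG and NRG1 were read mainly below the limit. For EREG, 205767_at read 3.32, 2.50 and 6.22 in the controls and 1.35, 0.598 and 1.39 with DHT, and 1569583_at went no higher than 21.4, so neither was tested. NRG1, the neuregulin that binds ERBB3 and ERBB4, had 6 probe sets, of which only 208241_at was tested. It read 34.5, 55.4 and 47.0 in the controls and 33.5, 18.8 and 46.0 with DHT, overlapping, at -0.36 ± 0.24 (limma adjusted p = 0.402). Of the untested NRG1 probe sets, 206343_s_at read 3.56, 1.66 and 3.07 in the controls and 7.64, 7.48 and 8.76 with DHT, and 208232_x_at read 10.9, 29.3 and 10.8 and then 4.92, 5.23 and 8.55. All 18 untested probe sets of the family had mean signals of at most 19.1, where MAS5 signals are noisy. With DHT above all controls in 1 of the 18 and below in 2, they stood beside 6.80% and 4.72% of the untested probe sets of the whole array. Among the 19 tested, the groups did not overlap with DHT above in 6 and below in 1, beside 15.0% and 13.8% of all tested probe sets. The NRG1 sets that differed so pointed in opposite directions.

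**Figure D3:**
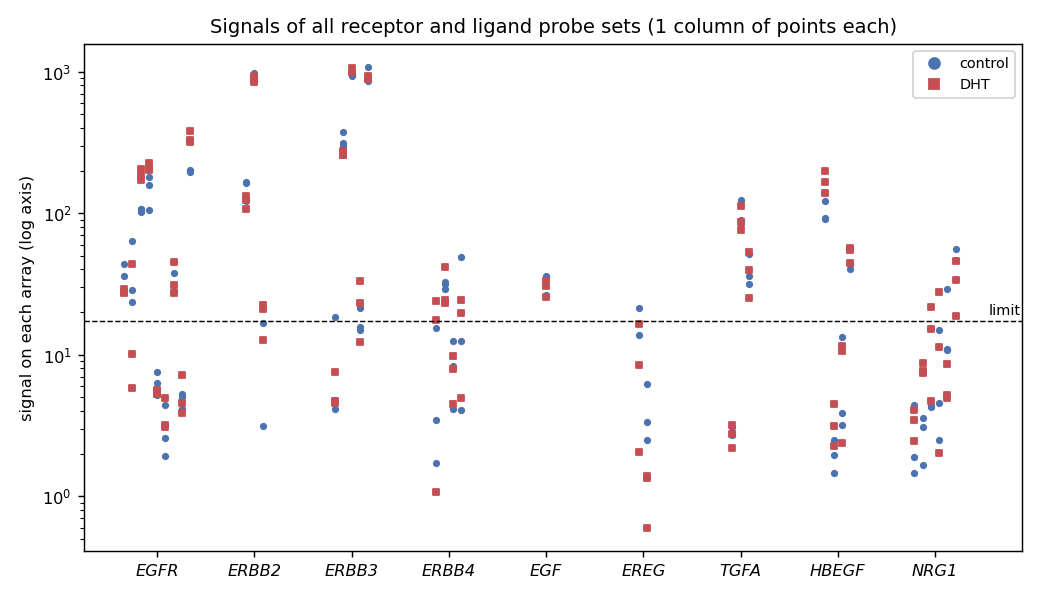
Signal on each array (log axis) for all 37 probe sets, 1 column of 6 points each, with controls as blue circles, DHT arrays as red squares and the dashed line at the limit of 17.3. EREG and most NRG1 and ERBB4 points lie near or under the line, and levels of different probe sets are not comparable with each other.

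All these differences are relative to the average transcript, since the deposited arrays share 1 trimmed mean signal of 100.03. The hybridisation spikes, RNAs added in fixed amounts before hybridisation, read 9.66 ± 0.11 in the controls and 10.19 ± 0.13 with DHT in mean log2(signal + 16) (exact permutation p = 0.1, the smallest possible). Scaled to them, the median of all probe sets was -0.51, and 1.07% of all calls were higher, against 49.3% with the deposited scaling. EGFR then had 0.21 at both 224999_at and 201983_s_at and HBEGF 0.11 at 203821_at, none past the threshold, and EGFR 201984_s_at turned to -0.02. Of the 19 probe sets 13 passed as lower, beside 18663 of all 32768 tested. Relative to that median the EGFR probe sets remained 0.72 and 0.73 above and HBEGF 0.62 above, which the subtraction of 1 offset per array fixes by construction. The ratio of 3' to 5' signal, a measure of RNA integrity and labelling, was 1.37 ± 0.05 for ACTB in the controls and 1.77 ± 0.07 with DHT, and 0.904 ± 0.044 and 1.06 ± 0.05 for GAPDH (exact permutation p = 0.1 each). The part of either shift in the EGFR and HBEGF results was not tested. In these bulk samples, RNA from more cells and more RNA per cell cannot be told apart.

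**Figure D4:**
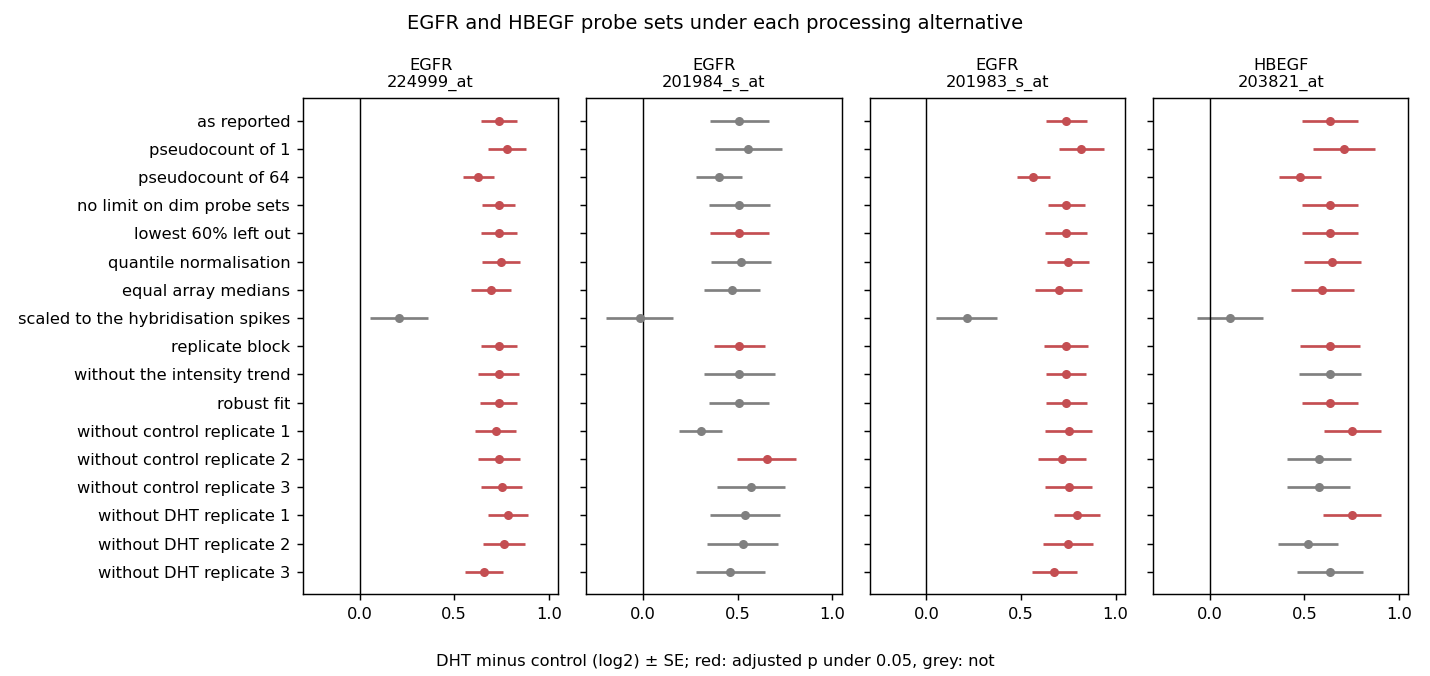
DHT minus control (log2, ± SE) for 3 EGFR probe sets and HBEGF 203821_at as reported and under 16 alternatives, in red where the adjusted p is under 0.05 and in grey where it is not. EGFR 224999_at and 201983_s_at passed in 15 of the 16, all but the scaling to spikes, and HBEGF 203821_at in 10.

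The line was checked by its markers. KLK3, prostate-specific antigen, read 2186 in the controls and 8985 with DHT, and all 6 luminal markers with a probe set were above the limit, 2 of them higher with DHT (KLK3 and KLK2) and 2 lower (HOXB13 at -0.37 and KRT8 at -0.43). Above the limit were 0 of 3 basal, 3 of 5 fibroblast, 2 of 4 endothelial and 2 of 3 blood markers. The fibroblast list summed to between 278 and 279 in the controls and between 184 and 251 with DHT, with COL1A1 lower at -0.54 (198 and 132). The endothelial list summed to 210 to 221 and 206 to 274, and the blood list to 103 to 135 and 106 to 127, with no member past the test. The part of these signals in the results was not tested. Across tested probe sets, arrays of the same group had a Pearson r between 0.973 and 0.978, and arrays of different groups one between 0.958 and 0.966.

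By likeness over the 6 arrays, the genes closest to EGFR 224999_at were ENPP4, PLEKHH1 and NPC1 (Pearson r of 0.998, 0.997 and 0.997), and those closest to 201983_s_at were WASHC4, CLDN12 and TMF1 (0.999, 0.999 and 0.997). These are descriptions of 6 points that fall in 2 groups, and 367 of 14268 genes had r over 0.95 with 224999_at. NPC1, a lysosomal cholesterol transporter, read 110 in the controls and 172 with DHT, and CLDN12, a claudin of tight junctions, read 465 and 625.

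Around the receptors, 89 further genes of the pathway were listed, of which 70 were tested, each read from its brightest probe set, 10 were below the limit and 9 were not analysed here. DHT raised 7 and lowered 3, or 14.3% of those tested, and 11.9% of all 14269 genes passed, 6.46% as higher and 5.42% as lower. The median log2 difference was 0.06, against 0.02 over all genes. In number the pathway therefore stood near the background. Of 88 further tested probe sets of these genes, 4 were higher and 6 lower. Of the metalloproteases and regulators of ligand release, 2 of 8 tested rose and 0 fell, and the median was 0.18. The 8 include TIMP3, an inhibitor of such proteases, at 0.28 (limma adjusted p = 0.594). Of the 8 differences 6 were positive and 2 negative, and the largest was downward, at the dim ADAM12 (-0.89), which did not pass (limma adjusted p = 0.102). ADAM10, which sheds EGF and other ligands, read 1240, 1236 and 1231 in the controls and 1503, 1562 and 1543 with DHT. The controls were nearly identical and the DHT arrays all higher, at 0.31 ± 0.07 (limma adjusted p = 0.0115). ADAM9, a related protease, had 0.32 ± 0.07 (limma adjusted p = 0.0173), and its second probe set rose as well, at 0.36. ADAM10's other probe sets, 214895_s_at and 202604_x_at, had 0.33 and 0.13 and did not pass (limma adjusted p = 0.0883 and 0.417). ADAM15, another member of the family, did not pass at its brightest probe set (-0.16) but fell at 217007_s_at (-0.53, limma adjusted p = 0.00545). Leaving out DHT replicate 2 ended the ADAM10 call (limma adjusted p = 0.0503), and leaving out control replicate 1, DHT replicate 1 or DHT replicate 3 ended that of ADAM9 (limma adjusted p = 0.0562 to 0.0640), as did the mean over its probe sets (0.27, limma adjusted p = 0.0669). ADAM17, the main sheddase of HBEGF and TGFA, had 0.05 (limma adjusted p = 0.884). With spike scaling ADAM10 and ADAM9 turned to -0.22 and -0.20, and with equal array medians neither passed (limma adjusted p = 0.0622 and 0.0631).

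Next to the receptor, 1 of 19 tested adaptors and effectors rose and 1 fell. PIK3R1, the regulatory subunit of PI3-kinase that binds phosphorylated ERBB3, read 804, 877 and 900 in the controls and 1288, 1399 and 1401 with DHT, at 0.65 ± 0.08 (limma adjusted p = 0.000337). Its other probe sets, 212239_at and 212249_at, had 0.08 and -0.08, and the mean over all 3 did not pass (0.22, limma adjusted p = 0.153). SHC1, an adaptor that links EGFR to RAS, read 676, 768 and 641 in the controls and 519, 505 and 479 with DHT, lower at -0.46 ± 0.08 (limma adjusted p = 0.00598), and its second probe set fell further, at -0.74. The phosphatase PTPN11, which links receptors to RAS, did not pass at its brightest probe set (0.11) but fell at 209895_at (-0.62) and 209896_s_at (-0.56; limma adjusted p = 0.00359 and 0.00398). PIK3R3, a further PI3-kinase subunit, likewise had 0.00 at its brightest and fell at 211580_s_at (-0.49, limma adjusted p = 0.00903). GRB2, the adaptor downstream, had -0.11. The median of this list was 0.06.

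Of 6 tested genes between RAS and ERK, 1 rose and 2 fell. The kinases MAP2K1 and MAP2K2, close relatives that both phosphorylate ERK, moved in opposite directions with the deposited scaling, but not with spike scaling, where MAP2K1 had -0.15. MAP2K1 read 674, 786 and 705 in the controls and 1003, 884 and 936 with DHT, at 0.38 ± 0.08 (limma adjusted p = 0.0143). MAP2K2 read 984, 976 and 1020 in the controls and 631, 657 and 523 with DHT, at -0.71 ± 0.09 (limma adjusted p = 0.000617), and its second tested probe set had -0.73. The groups overlapped in neither. The GTPase HRAS had -0.42 ± 0.09 (limma adjusted p = 0.0131). MAP2K1 did not pass without control replicate 1, control replicate 3 or DHT replicate 1 (limma adjusted p = 0.0521 to 0.0569). HRAS did not pass without DHT replicate 3 (limma adjusted p = 0.0515). MAP2K2 passed in all 17 alternatives.

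None of the 22 tested genes in the list of receptor restraint and turnover passed at its brightest probe set. The list also holds the chaperone genes HSP90AA1, HSP90AB1 and CDC37 and the deubiquitinase USP8, so not every member restrains the receptors. RNF41, a ubiquitin ligase that targets ERBB3, rose at the dimmer 235459_at (0.42, limma adjusted p = 0.0243). Among the brightest probe sets the smallest adjusted p was that of ERRFI1, an inhibitor that binds the EGFR kinase, whose controls read 241, 244 and 245 and whose DHT arrays read 310, 285 and 308, at 0.29 ± 0.08 (limma adjusted p = 0.0501). LRIG3, of a family of receptor-binding membrane proteins, had -0.44 (limma adjusted p = 0.10). Of 13 tested ERK target genes, 3 rose and 0 fell, and the median was -0.04. DUSP4, a phosphatase that switches ERK off, read 73.6, 73.9 and 62.6 in the controls and 102, 140 and 99.8 with DHT, at 0.58 ± 0.15 (limma adjusted p = 0.0304). Its other probe sets had 0.84 and 1.16 and passed as well. MYC had 0.60 ± 0.12 and PHLDA1 0.64 ± 0.17 (limma adjusted p = 0.00849 and 0.0386). Other genes of the list, such as EGR1 at 0.04, IER2 at -0.04, DUSP1 at 0.36 and CCND1 at -0.30, did not pass. DUSP1 and CCND1 came nearer the threshold (limma adjusted p = 0.0803 and 0.0968). A further 6 listed genes, FOS, DUSP6 and ETV4 among them, were below the limit and not tested. DUSP4 passed in 9 of 17 alternatives and PHLDA1 in 7, with calls lost on leaving out control replicate 1, 2 or 3 or DHT replicate 2 for DUSP4 (limma adjusted p = 0.0545 to 0.120) and any array except control replicate 1 for PHLDA1 (limma adjusted p = 0.0643 to 0.119). The mean over PHLDA1's probe sets was 0.30 (limma adjusted p = 0.315). Without the intensity trend, PIK3R1 and MAP2K2 passed and the other 8 of the 10 pathway calls were lost (limma adjusted p = 0.0698 to 0.128). The remaining ligands NRG2 and NRG3 had -0.02 and -0.10.

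**Figure D5:**
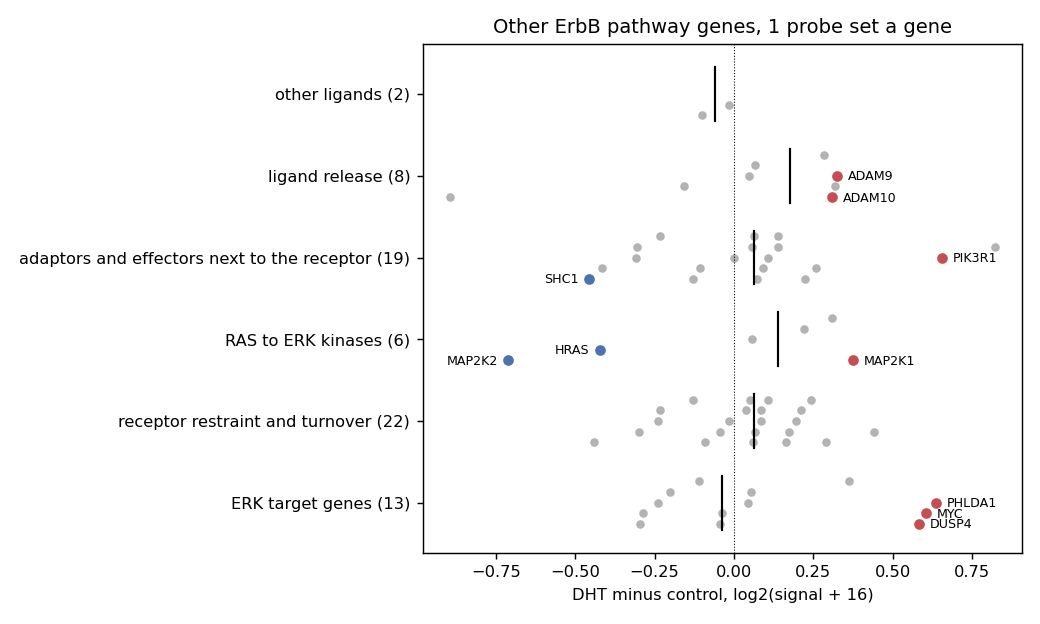
DHT minus control on the log2(signal + 16) scale for 70 tested genes of the ErbB pathway, 1 point a gene in 6 lists (numbers of tested genes in brackets), with the list median as a black bar, genes past an adjusted p of 0.05 in red where higher and blue where lower, and the others in grey. MAP2K1 (0.38) and MAP2K2 (-0.71) lie on opposite sides of 0 (MAP2K1 at -0.15 with spike scaling), and no gene of receptor restraint and turnover is coloured.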

How the data were processed

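RNA of 6 LNCaP cultures was read on 1-colour Affymetrix arrays. The values the authors deposited are linear signal intensities. The submitters' processing notes name MAS5 (version not given in the sources used here), which subtracts a background per probe pair, so that low values are noisy. The arrays were already scaled and were not normalised further. All 6 columns were used (0 left unused), and 62 control probe sets were left out of tests.

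Tests ran on log2(signal + 16) with limma 3.58.1 in R 4.3.3 (eBayes with an intensity trend, 4 residual degrees of freedom, a median of 11.4 in all), without the 40% of probe sets lowest in mean log2(signal + 16), and with Benjamini-Hochberg adjustment over the 32768 tested. This scale understates changes of dim genes. A gene was read from its brightest single-gene probe set, using those ending in _x_at last. Annotation gave 41097 probe sets 1 gene, 1801 several and 11777 none, and all 37 family probe sets matched GRCh38.p14 by gene identifier. From each pathway list, genes that passed were named, or the 2 with the smallest adjusted p. For likeness, the 3 genes with the highest correlation were named. ADAM12, ADAM15, ADAM17, TIMP3, GRB2, PTPN11, PIK3R3, RNF41, EGR1, IER2, DUSP1 and CCND1 were named after their values were seen. The members, lists and alternatives were chosen with earlier results of these data known. The fit was tested on simulated data. Figures used matplotlib 3.10.9.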

Additional observations from a re-analysis of the deposited data

How the results depend on the processing

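Results were recomputed under 16 alternatives: another pseudocount (1 or 64), another share of dim probe sets left out (0 or 60%), arrays brought to equal quantiles, equal medians or equal spike signals, a replicate block, a robust fit or one lacking the trend, and each array omitted. At 60% left out, 11 of the 19 family probe sets were still tested. Averaging the probe sets of a gene was also tried for the pathway, and for the receptors and ligands this was chosen after seeing the data. With spike scaling 0 family probe sets passed as higher and 13 as lower, as did 202 and 18663 of all probe sets and 0 and 45 pathway genes, and the values of ERBB3 202454_s_at (-0.42), ADAM10 (-0.22), ADAM9 (-0.20) and MAP2K1 (-0.15) reversed, and the uncalled EGFR 201984_s_at (-0.02), ERBB3 215638_at (-0.34) and HBEGF 38037_at (-0.32) also turned sign, because 1 offset per array was subtracted. Without the intensity trend 661 probe sets passed as higher and 603 as lower, and 1 pathway gene each way, and with equal array medians 3 pathway genes were higher; the cause was not tested. Leaving out 1 array gave 2 to 3 family probe sets higher and 0 lower, 1033 to 1379 of all probe sets higher and 977 to 1316 lower, and 4 to 6 pathway genes higher and 2 to 4 lower, with fewer samples in each fit. Same-numbered arrays did not deviate together (r = -0.01, -0.03 and -0.00 over probe sets). These values describe whole arrays and cannot decide whether same-numbered cultures were grown together. With the replicate block 4 family probe sets passed as higher, EGFR 201984_s_at among them (limma adjusted p = 0.0402), and 3114 of all probe sets passed. Signals near the limit of 17.3 and 3 arrays a group set the precision, most of all for ERBB4, EGF, EREG and NRG1.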
